A study of Homo sapiens with 6 samples.

Results

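The growing-only regions are 1242 places where E2F7 was called as bound in growing IMR90 cells and where neither quiescent cells nor senescent cells with RB knockdown had a called peak. IMR90 is a human fetal lung fibroblast line. The regions were chosen by 2 measured values, the tag count and the overlap with other lists. Each is a peak of the growing list on chromosomes 1 to 22 and X that holds 30 or more ChIP tags and shares not even 1 bp with a peak of the quiescent or the RB knockdown list. They are 1242 of 9481 growing peaks, and of 63371 peaks in the 3 lists. A tag is an aligned read counted inside the peak.

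The labels list 6 samples, and peak lists of 3 of them were analysed. Growing and quiescent IMR90 cells carry the treatment label "none". The senescent cells were infected with Ras and an RB hairpin, and the general protocol describes an ER-Ras vector, a Ras that tamoxifen switches on, with collection on day 4 of tamoxifen. That protocol is attached to all samples, so whether the growing and quiescent cells also carried the vector is not given in the sources used here. Every ChIP used 10 µg of an E2F7 antibody, and each state had 1 library, so no value below has a replicate error and no test between states was possible. Filtered depth was 22628990 tags for growing, 25212239 for quiescent and 23379790 for RB knockdown cells, against 1 control library of 22107968 tags common to the 3 lists.

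E2F7 is an atypical member of the E2F family. It binds DNA through paired DNA-binding domains without a DP partner, lacks the pocket-protein binding domain of the classical E2Fs, and represses genes of DNA replication and cell-cycle progression. RB, the retinoblastoma protein, restrains the classical activator E2Fs and takes part in the silencing of their targets in senescent fibroblasts. The annotation at hand is of another genome build than the hg18 coordinates of the peaks, so no region was assigned to a gene and no sequence was read.

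Few of these regions were strong calls. The median region held 36 tags (quartiles 32 and 43, range 30 to 303). It was 1047.5 bp wide, and its summit stood 5.43-fold over the local background (quartiles 4.64 and 6.50, range 2.66 to 13.1). These fold values, like the -10*log10 p and the false discovery rate (FDR), are the peak caller's own, computed by the authors for each peak. They come from the same contrast that chose the regions and are given as a description. The regions covered 1.395 Mb and held 0.220% of the filtered growing tags. Their tag density had a median of 34.9 tags per kb, which was 4.17 times the mean of the growing library over the effective genome, 8.38 tags per kb.

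The caller's FDR was high for nearly all of them, as it was for the growing list as a whole. The median FDR was 73.1% (quartiles 69.9% and 76.4%), against 72.6% over all growing peaks on these chromosomes. An FDR above 65% was given to 1033 regions (83.2%), against 88.7% of all growing peaks. At most 5% was met by 3 regions (0.24%), against 1.83% of all growing peaks. A -10*log10 p of at least 100 was reached by 140 regions, 11.3% of them (95% exact interval 9.57% to 13.2%), against 8.75% of all growing peaks. A fold enrichment of at least 10 was reached by 19, 1.53% of them (0.92% to 2.38%), against 2.28% of all growing peaks. Since tags and these scores come from 1 contrast, nothing is read from these pairs of shares. Among the 100 growing peaks of highest -10*log10 p there was no growing-only region. Among the first 500 there were 54 (10.8%), and among the first 1000 there were 189 (18.9%). The regions were 1242 of the 9466 growing peaks on these chromosomes. This ranking uses the same contrast, so nothing is read from these counts either.

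Whether a growing peak had a partner in another state went with its number of tags. Of all growing peaks on these chromosomes, 74.1% overlapped no peak of either other list. From 30 tags on, the share was 38.1% (36.4% to 39.8%, 1242 of 3262). The share was 72.0% at 30 to 34 tags (68.6% to 75.2%) and 45.0% at 40 to 49 tags (40.9% to 49.1%). It was 10.5% at 60 to 79 tags (7.88% to 13.7%) and 2.30% from 150 tags on, which was 4 of 174 peaks. More tags also meant wider peaks, which have more bases in which to meet another peak. The median growing-only peak was 936 bp wide at 30 to 34 tags and 1745 bp at 60 to 79 tags. The part of width in the falling share was not tested. Just below the threshold, 109 of 147 peaks with 29 tags overlapped no other list, with a median fold of 6.32. Just inside it, 160 of 195 peaks with 30 tags did so, with a median fold of 5.81.

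**Figure D1:**
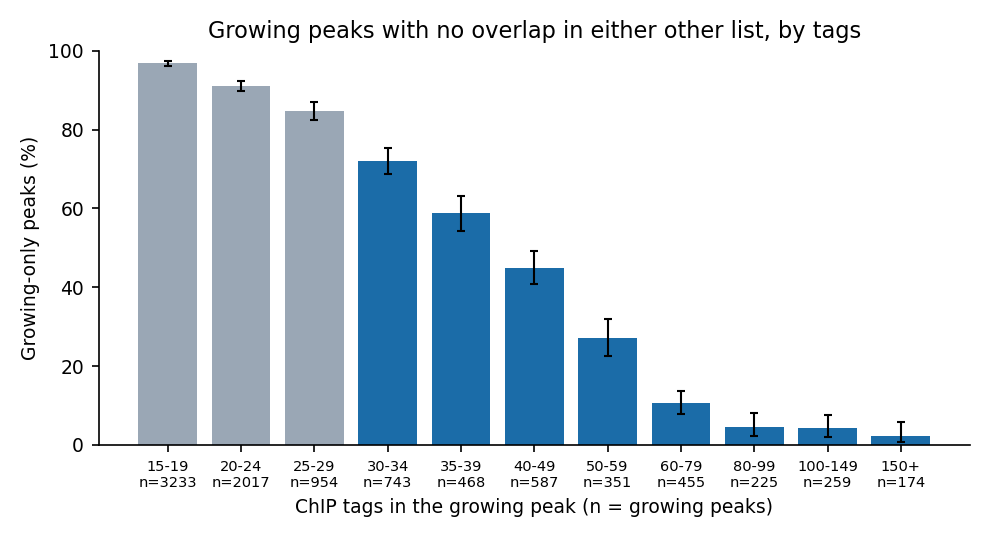
Share of growing peaks that overlap no quiescent or RB knockdown peak (y axis, percent), by the number of ChIP tags in the growing peak (x axis). Blue bars are the classes from 30 tags on, grey bars those below, and error bars are 95% exact binomial intervals that cover counting error only. The share goes from 96.8% at 15 to 19 tags to 2.30% at 150 or more.

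The other lists held peaks with fewer tags than these. The quiescent list held peaks of as few as 15 tags and the RB knockdown list of as few as 12. Under 30 tags lay 22.4% of quiescent and 38.6% of RB knockdown peaks. Applied to those lists, the same rule gave 2490 quiescent-only regions, 31.4% of the quiescent peaks with 30 or more tags (30.3% to 32.4%). It gave 20909 RB-knockdown-only regions, 78.0% (77.5% to 78.5%). The caller's FDR differed between these groups and the growing-only regions. It was at most 50% for 8.37% of growing-only, 91.9% of quiescent-only and 100% of RB-knockdown-only regions. The share was 7.405% over all growing peaks. Among growing peaks with 30 or more tags that overlapped another list it was 29.01%. An FDR depends on the whole list it was computed for, so a difference between lists is not read as a trait of the regions. Absence from a list means only that no peak passed its threshold there.

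Most of the regions had tag counts near the threshold. There were 810 with 30 to 39 tags (65.2%), 264 with 40 to 49, 153 with 50 to 99 and 15 with 100 or more. Fold enrichment went the other way, from a median of 5.62 at 30 to 39 tags through 5.20 and 4.69 to 4.00 from 100 tags on. Across the 1242 regions, tags and width had a Spearman rho of 0.751 and tags and fold one of -0.27. All come from 1 library, and tags and width are linked by construction. Every peak also had to pass the caller's p cutoff, so the relation of tags and fold is given only as a description. Compared with the 2020 growing peaks of 30 or more tags that overlapped another list, the median fold was the same, 5.43, while the shared peaks held a median of 61 tags. Within each of 8 tag classes from 30 tags on, the growing-only peaks had the lower median fold. The medians were 5.77 against 5.97 at 30 to 34 tags and 3.93 against 5.35 from 150 tags on, and these differences were not tested.

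**Figure D2:**
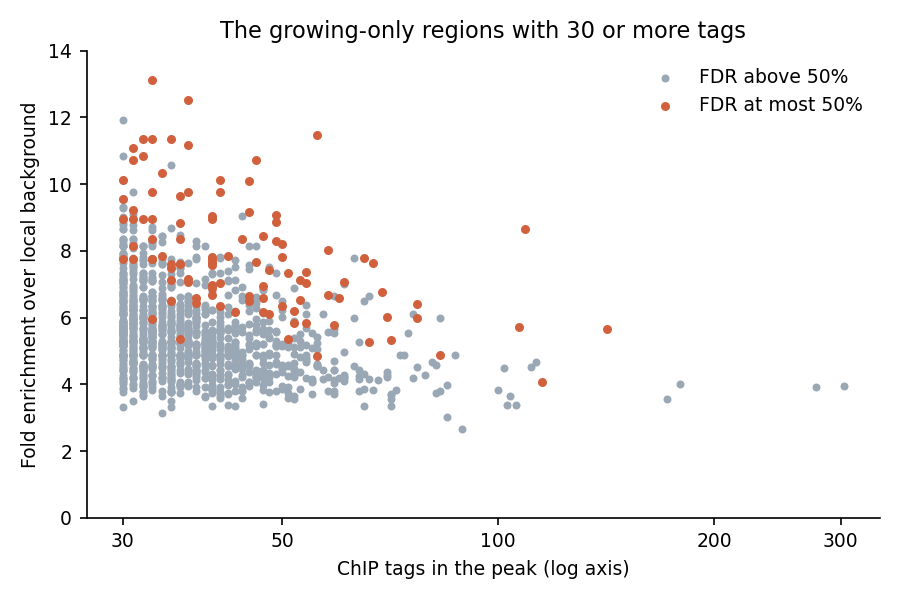
Each point is one of the 1242 growing-only regions, by its ChIP tags (x axis, log scale) and the authors' fold enrichment over local background (y axis). Orange points are the 104 regions with an FDR of at most 50%. The regions of at least 10-fold hold 30 to 56 tags, and the 4 with over 150 tags lie at 3.57-fold to 4.00-fold.

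The region with the most tags lay on chromosome 21, at 9803603 to 9810312 in hg18. It was 6710 bp wide and held 303 tags, with 3.94-fold enrichment and an FDR of 71.5%. Next came a region on chromosome 2, at 90972709 to 90976076, with 277 tags and 3.92-fold enrichment. Its density of 82.2 tags per kb was 9.81 times the library mean, against 3.92-fold over its local background. Of the 10 regions with the most tags, 7 had a fold enrichment below 5 and 6 an FDR above 50%. The others were 3 on chromosomes 6 and 2 with 107 to 142 tags and 5.65-fold to 8.65-fold enrichment.

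Among the groups of 5 or more regions, joined when at most 100000 bp apart, one on chromosome 21 had the largest sum of tags. Between 9794542 and 9882875 lay 6 growing-only regions with 53 to 303 tags each, 897 together, all between 3.38-fold and 5.52-fold and with FDRs of 67.8% to 77.9%. Over the same 88334 bp the growing list had 7 peaks, the quiescent list 2 and the RB knockdown list 0. The RB knockdown list had no peak on chromosome 21 before 13266423. In that stretch the growing list had 9 peaks, of which 7 were growing-only regions, and the quiescent list had 7 peaks of 28 to 177 tags. The quiescent library thus had called peaks between the growing-only ones, which by the rule overlap none of them. The quiescent peak of 177 tags overlapped another growing peak, of 74 tags. Of the 16 growing-only regions on chromosome 21, 7 lay in this stretch.

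The growing-only regions of lowest FDR were a pair on chromosome 2. The first, at 132748739 to 132750206, held 142 tags with 5.65-fold enrichment and an FDR of 3.90%. The second, at 132750522 to 132751717, held 109 tags with 8.65-fold enrichment and an FDR of 3.82%. A distance of 316 bp separated them, and at 96.7 and 91.1 tags per kb they had 11.5 and 10.9 times the mean density of the library. The nearest quiescent peak began 2706 bp beyond the second and held 58 tags. The nearest RB knockdown peak, of 395 tags, ended 18570 bp before the first. That RB knockdown peak overlapped a growing peak of 289 tags and a quiescent peak of 521 tags, so the same neighbourhood was called in all 3 states.

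**Figure D3:**
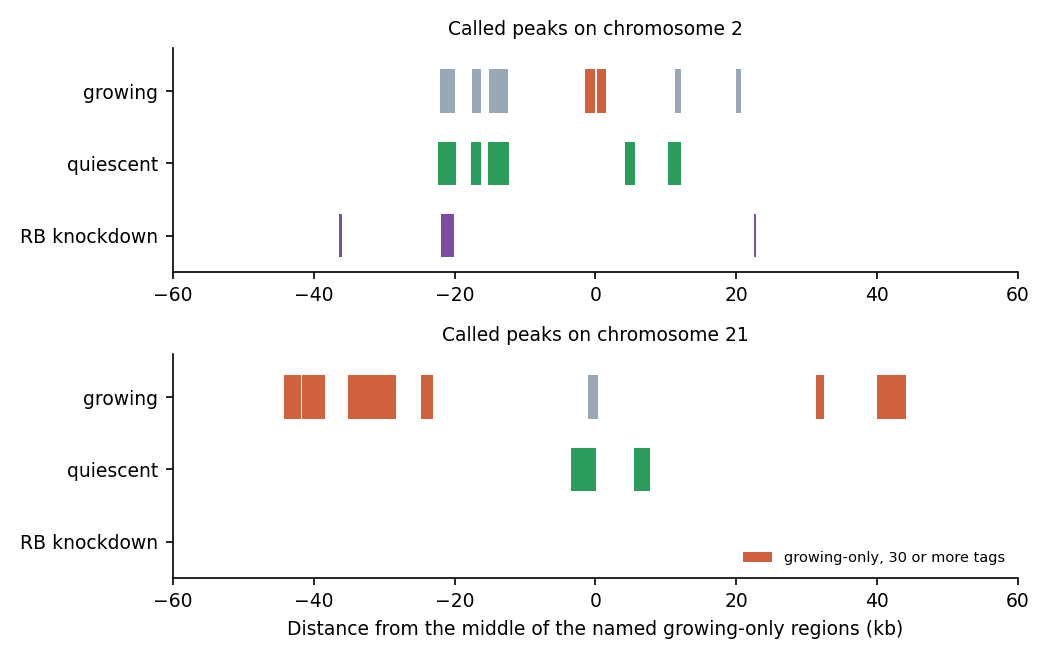
Called peaks of the 3 lists around the chromosome 2 pair and the chromosome 21 group, as distance in kb from the middle of these regions (x axis). Orange bars are growing-only regions with 30 or more tags, and grey, green and purple bars are the other peaks of the growing, quiescent and RB knockdown lists. On chromosome 2 there are 5 quiescent and 3 RB knockdown peaks in view, and on chromosome 21 there are 2 quiescent peaks and no RB knockdown peak.

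The third region under 5% FDR lay on chromosome 22, at 36101875 to 36103401, with 58 tags, an FDR of 4.27% and 8.03-fold enrichment. The nearest quiescent peak was 29485 bp and the nearest RB knockdown peak 29548 bp away, and the nearest other growing-only region, of 49 tags and 8.88-fold enrichment, lay 40455 bp away at 36060395 to 36061420. Those peaks had 11.4-fold and 17.2-fold enrichment in their own lists. The next 2 by FDR were on chromosome 1, at 20753828 to 20755392 (56 tags, 11.5-fold, FDR 9.95%), and on chromosome 13, at 19590149 to 19591960 (61 tags, 7.06-fold, FDR 10.0%).

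The 10 regions of highest fold enrichment were 597 to 1565 bp wide, 9 of them held fewer than 40 tags, and their FDRs ran from 9.95% to 59.3%. The highest was on chromosome 2, at 100369737 to 100370480, with 33 tags and 13.1-fold enrichment. Its nearest quiescent peak was 374072 bp away and its nearest RB knockdown peak, of 14 tags, 19889 bp away. On chromosome 1 the region at 44255829 to 44256755 followed with 37 tags and 12.5-fold enrichment. Chromosome X had 2 of the regions, at 11505448 to 11506364 (30 tags, 11.9-fold) and at 153299554 to 153300400 (35 tags, 11.3-fold). The remaining regions, on chromosomes 3, 6, 7 and 19, had 31 to 37 tags and 10.9-fold to 11.3-fold enrichment, and the chromosome 1 region at 20753828 was also among the 10. All 10 lay between 1927 and 32458 bp from the nearest peak of either other list. The tenth, on chromosome 19, was tied at 10.9-fold with a region on chromosome 10 and placed ahead of it by its -10*log10 p. That region, at 8128003 to 8128852, had 30 tags, an FDR of 61.4% and its nearest other peak 71549 bp away.

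Most growing-only regions (56.8%) lay within 10000 bp of a peak of another state, against 32.6% of growing-only peaks under 30 tags. No such share was computed for random positions. The median distance to the nearest quiescent or RB knockdown peak was 7876 bp (95% exact interval of the median 7367 to 8539 bp). Within 1000 bp lay 12.3% of the regions (153) and within 100000 bp 99.1%. The nearest peak was in the RB knockdown list, which has the most peaks, for 79.8% of the regions. The median distance was 8678 bp to an RB knockdown peak and 43208.5 bp to a quiescent peak. Growing-only peaks under 30 tags lay farther off, with a median of 19568 bp to the nearest peak of either list (18759 to 20329 bp). No test was run on this difference, because peaks of 1 library are not independent.

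**Figure D4:**
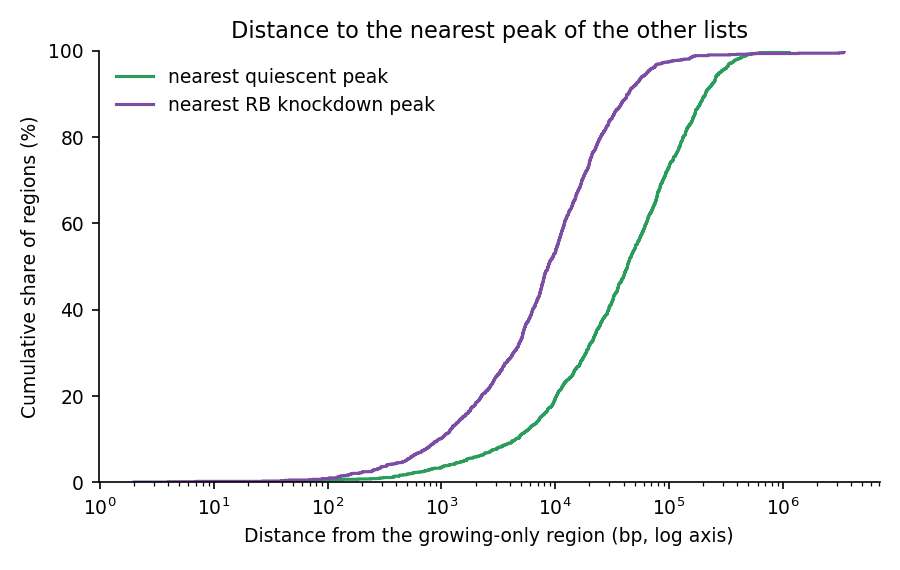
Cumulative share of the 1242 growing-only regions (y axis, percent) by the distance to the nearest quiescent (green) or RB knockdown (purple) peak (x axis, bp, log scale). The purple line lies to the left, with a median of 8678 bp against 43208.5 bp. The RB knockdown list has 43643 peaks on these chromosomes and the quiescent list 10225.

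Some regions all but touched a peak of another state. On chromosome 4 the region at 14613286 to 14614310 (39 tags, 6.27-fold) started 2 bp after the end of an RB knockdown peak of 34 tags. On chromosome 20 the region at 3854248 to 3856097 (70 tags, 4.22-fold) ended 4 bp before one of 67 tags. On chromosome 9 the region at 93579918 to 93581100 (38 tags) lay 7 bp from an RB knockdown peak of 26 tags and 291 bp from a quiescent peak of 48 tags. On chromosome 17 the region at 43124608 to 43126227 (54 tags, FDR 27.0%) ended 22 bp before a quiescent peak of 65 tags. On chromosome 1 the region at 154372808 to 154373816 (36 tags) ended 27 bp before an RB knockdown peak of 21 tags. For the 153 regions within 1000 bp of another list, the neighbouring peak held a median of 43 tags (range 12 to 670), and 115 of the neighbours had 30 or more. The caller used a fragment length of 200 bp for growing and quiescent and of 125 bp for RB knockdown. Its part in where peak edges fell was not tested.

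At the other end were regions far from any call in another state. The most distant was on chromosome 2, at 115012175 to 115012966, with 30 tags, 7.76-fold enrichment and an FDR of 45.8%. Its nearest RB knockdown peak was 343284 bp and its nearest quiescent peak 398273 bp away. On chromosome 18 the region at 42379939 to 42380673 (42 tags, 5.03-fold) was 171788 bp from an RB knockdown peak. The regions at 210575431 to 210576588 on chromosome 2, at 116850254 to 116851469 on chromosome 8 and at 84604649 to 84605550 on chromosome 9 had 31 to 43 tags and FDRs of 72.5% to 77.3%. Their nearest peak of another list was 160541 to 167747 bp away.

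Growing-only regions were usually single. With regions joined at up to 100000 bp, 907 of them (73.0%) stood alone, 105 groups held 2 and 35 groups held 3 or more. Besides the chromosome 21 group, 3 groups had at least 5 members. They lay on chromosome 3 (48572631 to 48721668, 6 regions of 30 to 56 tags), chromosome 17 (43058529 to 43273057, 6 regions of 30 to 65 tags) and chromosome 12 (55828428 to 55925355, 5 regions of 30 to 77 tags). Unlike on chromosome 21, the RB knockdown list had 7, 8 and 7 peaks inside these 3 groups. Only 37 regions lay within 10000 bp of the one before them, and 6 within 1000 bp. The closest pair was on chromosome 21, at 9794542 to 9796874 (103 tags) and 9797007 to 9800286 (179 tags), with 133 bp between them. Close pairs also lay on chromosome 7 (128267926 to 128268886 and 128269130 to 128270039), chromosome 11 (61969841 to 61970880 and 61971252 to 61972284) and chromosome 3 (48670198 to 48670991 and 48671746 to 48672884). Each member of those 3 pairs had 30 to 50 tags.

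Position on the chromosomes was not part of the choice beyond the limit to 1 to 22 and X. Per 10 Mb spanned by peaks, the regions were densest on chromosome 22 (14.3), chromosome 17 (12.97) and chromosome 19 (11.8). They were sparsest on chromosome X (0.660) and chromosome 4 (1.52). Chromosomes 16, 17, 19 and 22 together held 23.03% of the regions (20.7% to 25.5%), against 18.7% of all growing peaks (17.9% to 19.5%). The same chromosomes held 26.5% of the shared growing peaks with 30 or more tags (24.6% to 28.5%), 14.8% of the growing-only peaks under 30 tags (13.9% to 15.7%), 10.9% of the quiescent-only regions (9.69% to 12.2%) and 11.8% of the RB-knockdown-only regions (11.4% to 12.3%). This set of chromosomes was chosen with the results known.

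The growing-only share of growing peaks with 30 or more tags varied by chromosome. It was highest on chromosome 18, at 58.1% (42.1% to 73.0%, 25 of 43 peaks), and lowest on chromosome X, at 23.3% (11.8% to 38.6%, 10 of 43). On chromosome 19 it was 31.5% (25.7% to 37.8%, 75 of 238). Of 23 chromosomes, 2 (18 and 19) had a 95% interval that left out the 38.1% over all. The intervals were not adjusted for the number of chromosomes.

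**Figure D5:**
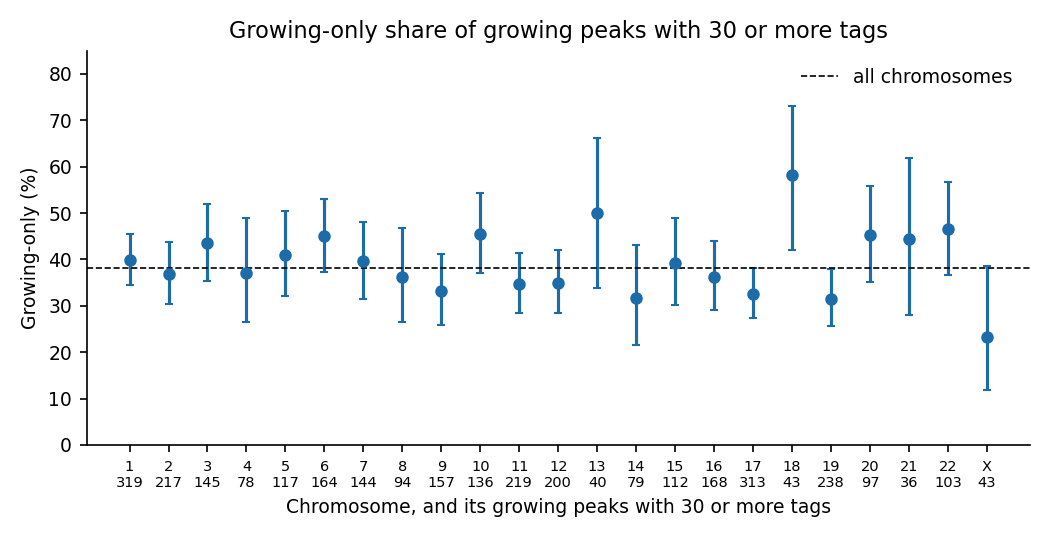
Growing-only share of the growing peaks with 30 or more tags on each chromosome (y axis, percent), with 95% exact binomial intervals and the number of such peaks under each chromosome name. The dashed line is the share over all chromosomes, 38.1%. Chromosome 18 lies above it and chromosome 19 below it with intervals that leave it out.

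Nearness to a chromosome end was taken as a summit within 5 Mb of the outermost peak of any list. It was met by 15.8% of the growing-only regions (13.8% to 17.9%) and by the same 15.8% of all growing peaks (15.03% to 16.5%). The share was 14.6% of growing-only peaks under 30 tags (13.7% to 15.5%), 17.4% of the shared peaks with 30 or more tags (15.7% to 19.1%), 12.5% of quiescent-only regions (11.3% to 13.9%) and 8.15% of RB-knockdown-only regions (7.78% to 8.53%). Among the 140 growing-only regions with a -10*log10 p of at least 100 it was 25.7% (18.7% to 33.8%), against 14.5% (12.5% to 16.7%) of the others. Shared peaks split the same way gave 20.8% (17.7% to 24.0%) and 15.7% (13.8% to 17.8%). Chromosomes 13, 14, 15, 21 and 22 are acrocentric, with a short arm that genome builds of this age mostly leave out, so their first peak does not mark a chromosome end. Without these chromosomes the values for the growing-only regions were 24.4% and 12.8%, and those for the shared peaks 19.7% and 15.3%. Without the split by p, they were 14.1% of growing-only regions (12.13% to 16.35%) and 16.75% of shared peaks (15.05% to 18.55%). The split by p was not among the planned results, and it uses a score from the contrast that chose the regions. None of the differences in these shares was tested.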

How the data were processed

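E2F7 ChIP-seq peaks were compared between growing, quiescent and RB knockdown IMR90 cells. The submitters' processing notes name Bowtie and hg18. MACS 1.4.1 was run by the authors on each library separately against 1 common control, per the file headers, at a p cutoff of 1e-05, keeping at most 2 tags per position. Which labelled sample served as control is not given there. Per the file headers, each peak has a count of ChIP tags, a p given as 10 times its −log10, a fold enrichment (a linear ratio to the local background) and an FDR in percent.

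The members, lists and alternatives were chosen with earlier results of these data known. Overlaps, distances (start minus end of the neighbour, in bp) and 95% exact binomial intervals for shares and medians were computed in Python 3.11.15 with pandas 2.3.3 and SciPy 1.17.1. The functions were tested on simulated intervals. Intervals cover counting error only, since tags and neighbouring peaks are not independent. The growing list held 15 peaks outside chromosomes 1 to 22 and X, which were left out. Named were the 10 regions with most tags, the 10 with highest fold, the 5 of lowest FDR, the 5 nearest to and the 5 farthest from another list, and the 5 closest pairs. Group members, chromosome 18, 19 and X shares and the start of the chromosome 21 list were singled out after their values were seen. No gene, motif or sequence step was run, because no genome or annotation of hg18 was used here.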

Additional observations from a re-analysis of the deposited data

How the results depend on the processing

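The number of regions and most of their properties moved with the thresholds, and with 1 library per state depth and replicate error could not be weighed. No paired analysis was possible because each state had 1 library. The values below follow the order number, share of growing peaks, median fold and median distance, where each moved. A tag minimum of 20 gave 3888 regions, 62.4%, 6.50-fold and 11604 bp. A minimum of 40 gave 432, 21.1%, 5.05-fold and 6737 bp, and a minimum of 50 gave 168, 11.5%, 4.62-fold and 6208.5 bp. A -10*log10 p of at least 100 in the growing list left 140 regions, 17.4% and 7.60-fold. An FDR of at most 5% there left 3 regions, 1.73%, 8.03-fold and 4217 bp. A fold of at least 5 left 792 regions and 6.11-fold. With no other peak within 1000 bp there were 1089 regions, 33.4% and 9728 bp, and within 10000 bp there remained 536 regions, 16.4% and 20359.5 bp. When sharing needed 50% of both peaks, there were 1694 regions, 51.9% and 4115 bp. When summits had to lie within 200 bp, there were 2025 regions, 62.1%, 5.25-fold and 1678 bp. Other lists at an FDR of at most 5% gave 1353 regions, 41.5% and 8786 bp. At a -10*log10 p of at least 100 they gave 1745 regions, 53.5% and 26767 bp. At the length of the shortest list they gave 1650 regions, 50.6% and 23293.5 bp. Against the quiescent list alone there were 2020 regions, 61.9%, 5.26-fold and 39977 bp. Against RB knockdown alone there were 1371 regions, 42.0% and 8673 bp. The share on chromosomes 16, 17, 19 and 22 was 18.98% from 20 tags, 28.0% from 50 tags, 33.3% (1 of 3) at an FDR of at most 5%, and 19.2% with no other peak within 10000 bp. The share near chromosome ends was 18.1% from 40 tags, 23.2% from 50 tags, 25.7% at a -10*log10 p of at least 100 and 0 (of 3 regions) at an FDR of at most 5%. It stayed inside its interval, at 14.1%, without the acrocentric chromosomes, an alternative chosen after seeing the data. The overlap, summit and distance settings change what counts as shared, and the others change which peaks enter. Any further cause was not tested.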
